A study of Mus musculus with 8 samples.

Results

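Astrocytes of the young mouse cerebral cortex are described here, as nuclei picked out of single-nucleus RNA sequencing libraries by the genes they carried. A barcode was kept with 500 or more detected genes and no more than 2% of mitochondrial UMIs (unique molecular identifiers, 1 per captured RNA molecule). A kept nucleus was a member when it held 5 or more UMIs in all of Slc1a3, Gli3, Slc39a12, Aqp4 and Gja1. Limits on markers of other cells completed the rule: at most 1 UMI of Slc17a7, Gad1 and Gad2, at most 2 of Mog, Mag and St18, at most 1 of Pdgfra, and at most 2 of Inpp5d and Flt1. Of 97772 barcodes 77185 passed the first filter, and 4796 of these nuclei (6.21%) were members, between 454 and 736 in each of 8 libraries.

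Each library came from the cerebral cortex, with the medial part removed, of 1 C57BL/6J mouse at postnatal day 25. There were 4 wild-type (WT) mice and 4 mice heterozygous for Chd8 (Chd8+/-, labelled Chd8het), 2 males and 2 females in each group, matched by litter and sex. The labels do not describe the Chd8 allele, and they name no Cre line or transgene. In each sex and genotype replicate 1 was a single-indexed and replicate 2 a dual-indexed 10x 3' v3 library, so index type and replicate number cannot be told apart. Replicate numbers are those of the sample titles; some deposited files carry other numbers in their names, so the numbering was not otherwise checked.

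Astrocytes take up the glutamate and potassium that active neurons release, hold water channels at their endfeet on blood vessels, and are coupled to each other by gap junctions. They also make cholesterol for neurons and secrete proteins that help synapses form and mature. In the cortex, protoplasmic astrocytes fill the grey matter, while astrocytes of the white matter and the pial surface hold more of the filament protein GFAP. CHD8 is a chromatin remodeller, and loss of 1 copy of its gene is associated with autism in people.

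The 8 libraries held 69.5 to 98.13 M UMIs (M, 1000000), of which the astrocyte nuclei held 1.489 to 2.566 M per library and 15.91 M in all. An astrocyte nucleus had a median of 2890.5 UMIs and 1533 genes, against a median of 10837 UMIs in 17255 glutamatergic neuron nuclei (3 or more Slc17a7 UMIs, other markers at their limits). Counts of any gene in an astrocyte nucleus therefore carried a wide counting error, and genotypes were compared on sums over each library. Among kept nuclei, 1791 carried a barcode that another library also held, and 105 of these were astrocytes. Just 4 astrocyte nuclei had a barcode that belonged to an astrocyte in another library too.

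The genes of the rule are a description of how members were chosen, and no test of them is given. OPC (oligodendrocyte precursor) nuclei were chosen by Pdgfra, oligodendrocytes by Mog, Mag and St18, and microglia by Inpp5d. These classes and the glutamatergic nuclei were limited to at most 4 UMIs of the rule's genes in all. Their low levels of those genes were thus also set by selection. Slc1a3, which encodes the glutamate transporter GLAST, was at 2142 UMIs per 1000000 UMIs (CPM) in astrocytes, against 219.5 in oligodendrocyte precursors (OPC), 189.4 in microglia, 76.8 in oligodendrocytes and 13.7 in glutamatergic neurons. It was seen in 99.2% of members. Gli3, a transcription factor of the hedgehog pathway, was at 551.6 CPM in astrocytes and at 4.91 CPM or less in those 4 classes. Slc39a12, a zinc transporter, was at 544.2 CPM in astrocytes and at 41.0 CPM in microglia, the next highest class. Gja1, the gap junction protein connexin 43, was at 192.8 CPM, and the water channel gene Aqp4 at 105.9 CPM, seen in 43.1% and 24.4% of members.

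Gpc5, a glypican of the cell surface, was left out of the rule and marked the same nuclei. Its level was 9950 CPM in astrocytes, 30.0 times that in all other kept nuclei, and 95.7% of members held at least 1 Gpc5 UMI. The library values ran from 8981 to 11710 CPM, while the other nuclei of a library lay between 270.3 and 424.6 CPM. OPC also held Gpc5, at 4199 CPM and in 96.8% of nuclei. A share of 49.9% was found in the far deeper glutamatergic nuclei, where the median count was 0, against a median of 29 UMIs in members.

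**Figure D1:**
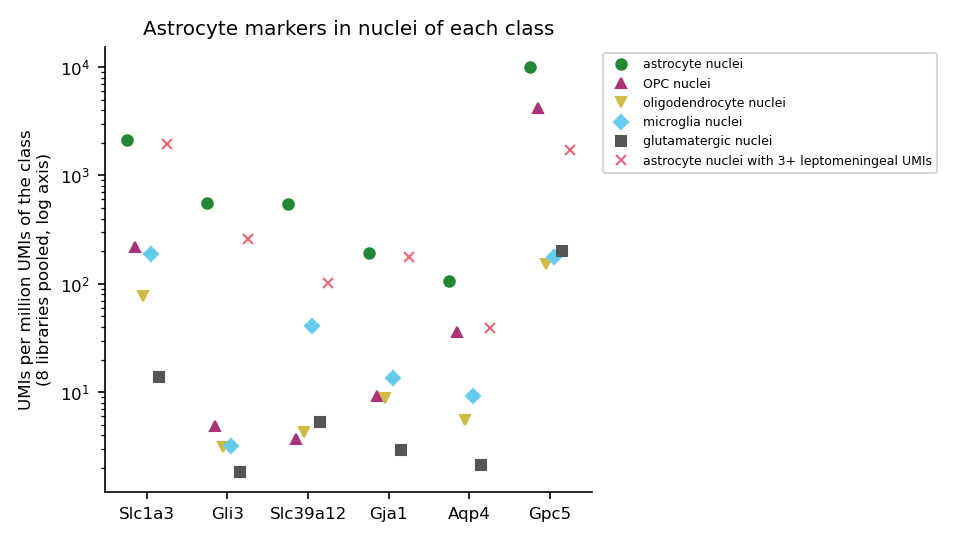
Level of the 5 genes of the rule and of Gpc5 (UMIs of the gene per 1000000 UMIs of the class, 8 libraries pooled, log axis) in astrocytes, 4 comparison classes and the astrocyte nuclei with leptomeningeal genes. Slc1a3 lies at 2142 CPM in astrocytes and 13.7 CPM in glutamatergic nuclei, and Gpc5 at 9950 and 202.7 CPM, with the leptomeningeal nuclei at 1945 CPM for Slc1a3 and 1712 CPM for Gpc5. The 4 comparison classes were chosen with a limit on the genes of the rule, but not on Gpc5.

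Of 36 astrocyte genes that the rule did not use, 36 were higher in members than in the other nuclei, and 32 were at least 5 times higher. Slc1a2, the main glutamate transporter of the forebrain, was at 6631 CPM, 12.6 times the level in other nuclei, and was found in 98.1% of members. Glul, glutamine synthetase, was at 357.3 CPM and 13.5 times higher. Aldh1l1, a folate enzyme and a common astrocyte marker, was at 126.2 CPM and 10.5 times higher. S100b was the weak case at 2.57 times, and oligodendrocytes and their precursors are also known to express it. These genes were measured in the same nuclei that the rule chose, so the folds describe the members and carry no test.

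At the edge of the rule, 523 nuclei with 4 marker UMIs, just outside, had Gpc5 in 78.0% of nuclei, with a median of 10 Gpc5 UMIs and 1964 UMIs in all. The 498 members with 5 marker UMIs had Gpc5 in 88.4%, a median of 15 Gpc5 UMIs and 2051.5 UMIs in all. Before the limits on other markers, 6012 nuclei had 5 or more marker UMIs, so the limits removed 1216.

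Some members also carried genes of another cell type. A set of 251 nuclei (5.23%) held 3 or more UMIs of 8 genes of leptomeningeal fibroblasts, the cells of the membranes around the brain, with a threshold and genes chosen after seeing the data (Slc6a20a, Slc6a13, Colec12, Adam12, Bmp6, Bnc2, Slc22a8 and Lama1). In these nuclei Ptgds, prostaglandin D2 synthase, was at 12210 CPM, and in the members left after they and predicted doublets were removed it was at 72.1 CPM. The transporter genes Slc6a20a (1809 against 2.7 CPM) and Slc6a13 (464 against 0.616 CPM) and the transcription factor gene Bnc2 (948 against 2.39 CPM) were among the 8, so their levels only describe the selection. Gpc5, like Ptgds outside that selection, went the other way, at 1712 against 11580 CPM, while Slc1a3 was at 1945 against 2392 CPM. The label holds for most members, while these nuclei combine the rule's markers with little Gpc5 and much Ptgds.

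The leptomeningeal nuclei were 5.38% ± 1.49 (SD, n = 4) of members in WT and 5.17% ± 1.59 (SD, n = 4) in Chd8het (exact permutation test over all 70 assignments of libraries, two-sided, p = 0.886). The same UMI threshold was met by 1.29% of glutamatergic nuclei, 0.993% of microglia, 2.86% of oligodendrocytes and 20.2% of OPC. Predicted doublets, droplets with more than 1 nucleus, were 238 members (4.96%), with a median of 8533.5 UMIs. Their share was 4.19% ± 1.36 (SD, n = 4) in WT and 5.72% ± 1.30 (SD, n = 4) in Chd8het, with p = 0.171 in the same exact test. The difference, Chd8het minus WT, was 3.449 points among single-indexed and -0.386 points among dual-indexed libraries. Leaving out both sets kept 4330 nuclei, and values without them are given where stated.

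Gfap varied among cortical astrocytes. Its level per library ran from 22.4 to 52.6 CPM, 14.0 times the level in other nuclei when pooled, and 7.57% of members had a Gfap UMI. To compare nuclei at 1 depth, each was thinned to 2000 UMIs, which left out shallower nuclei and kept 3998 members. Of these 229 (5.73%) had at least 1 Gfap UMI and 58 (1.45%) had 2 or more, against 67 (0.391%) and 0 of 17156 glutamatergic nuclei. The 0 allows a share of up to 3 counts in that total. These cuts set a range of counts and not a cell type, since most nuclei above the lower cut held 1 UMI.

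Within the same libraries, nuclei with 2 or more Gfap UMIs were compared with those with none, by edgeR's quasi-likelihood test with a block for library and Benjamini-Hochberg (BH) adjustment. With TMM scaling, which assumes that most genes do not differ, 1386 of 8964 genes (15.5%) passed an adjusted p of 0.05 and a 2-fold difference, 41 higher and 1345 lower. That scaling put the median of all genes at -0.784 on the log2 scale, against 0.161 without it, and made false calls on simulated counts of this design. Without scaling beyond the equal depth of the nuclei, 125 genes passed, 102 higher and 23 lower, with 63 shared with the first set. The values named next come from the version with 1 or more Gfap UMIs, no scaling, and leptomeningeal nuclei and doublets left out, which was chosen after seeing the data. There 79 of 7709 genes (1.02%) passed, 68 higher and 11 lower, with 37 shared with the first set, and the median of all genes was 0.082. The filter on low counts ran over the sums of both groups. Genes low in nuclei without Gfap could thus enter the test through the nuclei with Gfap, where they were high. The balance of higher and lower calls was therefore partly set by the filter.

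Myoc, the secreted glycoprotein myocilin, was at 131.3 CPM in nuclei with Gfap and 8.945 CPM in nuclei without, a log2 difference of 3.97 (SE 0.38, adjusted p = 1.16e-22, higher in 8 of 8 libraries). Thbs4, a thrombospondin that promotes synapse formation, was at 133.6 against 10.14 CPM (log2 3.69, SE 0.36, adjusted p = 3.11e-21, 8 of 8 libraries). C4b, a complement component, was at 57.6 against 6.559 CPM (log2 3.09, SE 0.55, adjusted p = 3.56e-06, 8 of 8 libraries). All adjusted p-values here are from edgeR's quasi-likelihood test with BH adjustment. The counts were small: 57 UMIs of Myoc in nuclei with Gfap and 60 in nuclei without, 58 and 68 of Thbs4, and 25 and 44 of C4b.

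The semaphorin receptor gene Nrp2 rose by 2.78 and the glutamine transporter gene Slc38a1 by 2.52 on the log2 scale, each in 8 of 8 libraries. Matrix genes were tenascin C, Tnc (1.39, 8 of 8 libraries), and tenascin R, Tnr (1.46, 7 of 8). Id3 (1.83) and Id4 (1.11), inhibitors of basic helix-loop-helix transcription factors, also passed, each in 8 of 8 libraries. So did the growth factor binding protein gene Igfbp5 (1.78), higher in 6 of 8 libraries. Of 3 OPC markers measured 1 passed as higher. The rule limited Pdgfra in all members, and the part of OPC RNA in these differences was not tested. Aqp4 was at 315.7 against 108.5 CPM. The rule used Aqp4 to choose members, so both sides of this comparison had already been selected on it, and the values are a description.

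Of 23 genes measured from a list of white matter and pial astrocyte genes, with Aqp4 left out, 9 passed higher and 0 lower, with a median log2 difference of 1.015, against 68 and 11 and a median of 0.082 over all genes. Myoc, Thbs4 and C4b are among the 9, so the filter on low counts bears on this count too, and it is a description. Of 29 grey matter astrocyte genes 0 passed both the adjusted p and the 2-fold limit, with a median of -0.217. Below 2-fold, the adjusted p was under 0.05 for Trpm3 (log2 -0.99), Gpc5, Gria2, Lsamp, Grm3, Gjb6 and Slc7a10, all lower. So it was for Gria1, which was higher (0.71). Unc13c, a synaptic vesicle priming factor, was lower, at 444.7 against 1148 CPM (log2 -1.35, SE 0.12, adjusted p = 1.28e-27, edgeR quasi-likelihood, BH), lower in 8 of 8 libraries. Rspo3, an activator of WNT signalling, was lower by a log2 difference of -3.61 (adjusted p = 0.00504), resting on 1 UMI in nuclei with Gfap. Several astrocyte genes differed by less than 2-fold on the log2 scale. Luzp2 was at -0.96 (adjusted p = 2.21e-28), Gpc5 at -0.62 (1.27e-15) and the amino acid transporter gene Slc7a10 at -0.71 (0.0203), by the same test. Slc1a2 differed by -0.046. In the unscaled version at 2 or more Gfap UMIs with all members, the grey matter genes Gpc5 (-1.19), Trpm3 (-1.76) and Slc7a10 (-2.12) passed as lower. Gria1 (1.26) and Ntsr2 (1.38) of that list passed there as higher.

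**Figure D2:**
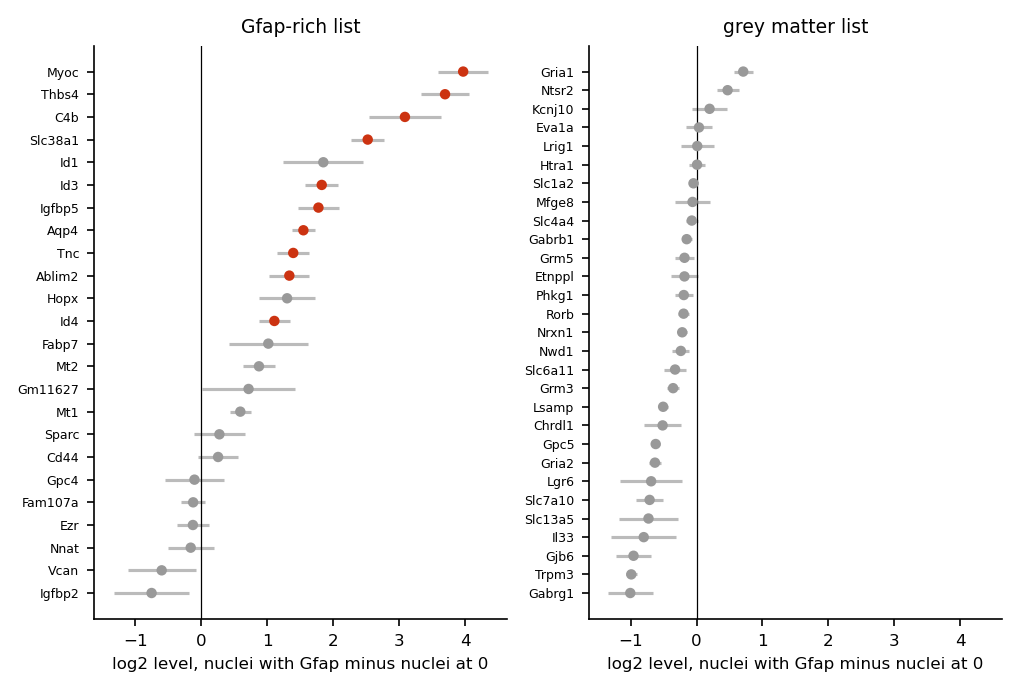
Log2 difference in level between astrocyte nuclei with 1 or more Gfap UMIs and nuclei with none, at 2000 UMIs per nucleus, without leptomeningeal nuclei and doublets, for 24 white matter and pial astrocyte genes (left) and 29 grey matter genes (right). Points are estimates with bars of 1 SE, and red marks genes that passed; these are 9 genes on the left, led by Myoc at 3.97, beside Aqp4, which the rule used, and 0 of 29 on the right.

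Chrdl1, a secreted antagonist of bone morphogenetic proteins that is known from upper-layer astrocytes and drives the maturation of synaptic AMPA receptors, was in 558 of 3998 thinned members (14.0%), against 31 of 17156 glutamatergic nuclei (0.181%). Nuclei with and without it differed in 68 of 8814 genes (0.771%), 2 higher and 66 lower, in the main fit. The lower genes included Ptgds (log2 -3.41), Slc6a20a (-4.67) and Bnc2 (-5.61), the last pair among the genes that chose the leptomeningeal nuclei above. Without those nuclei and doublets 3 of 7972 genes (0.0376%) passed. The noncoding RNA Gm29521 was higher (log2 1.19, 6 of 8 libraries), while 9530026P05Rik (-1.05, lower in 8 of 8 libraries) and Slc38a1 (-1.32) were lower. Lama3, a laminin chain, was higher by 0.88 (adjusted p = 1.23e-04, edgeR quasi-likelihood, BH), which is less than 2-fold.

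Between genotypes, 0 of 13174 genes (0%) passed an adjusted p of 0.05 in astrocytes by edgeR's quasi-likelihood test with sex and index type as terms, and 0 by DESeq2. At an unadjusted p under 0.05 there were 788 genes (5.98%), 428 (3.25%) higher and 360 (2.73%) lower in Chd8het, and 335 genes (2.54%) had groups that did not overlap, 170 (1.29%) with all Chd8het libraries below and 165 (1.25%) with all above. No gene passed as changed in this fit. Without Chd8het female 2, 9 genes passed, among them Ntng1 (log2 0.93, adjusted p = 0.0347), Hs3st5 (log2 1.12, adjusted p = 0.044) and Gm45708 (-1.02, adjusted p = 0.0347) by edgeR's quasi-likelihood test with BH. Without the filter on low counts 80 of 23812 genes passed, 53 higher and 27 lower, and 79 of them were also tested with the filter. The smallest adjusted p-values, by edgeR's quasi-likelihood test with BH, were those of Gm32647 (1.23e-10) and Zfp804b (3.33e-08), both higher in Chd8het. Adarb2, Epha6, Tenm2, Syt1 and Grm7 were also among those higher, and the part of RNA from neurons in them was not tested. Of the genes named below, the 80 include Ntng1 (adjusted p = 0.000127), Ddo (0.000312), Chrdl1 (0.00323), Luzp2 (0.0046), Zmat4 (0.00767), Hmgcs1 (0.0248) and Thbs4 (0.0411). Gm45708 (9.31e-05), Cadps2 and Hs3st5 (each 0.000537) are also among them, by the same test. So are Hecw2, Cntnap5b, Prr16, Gm49708, Rbms3, Egfem1, Plcl1, Eogt, Hpgds, Ryr3 and Pde10a. Their log2 differences hardly moved, while the spread that edgeR shares between genes was estimated with no limit on its prior degrees of freedom, against a median of 10.9 with the filter. The genes below are named because they had the smallest p-values or belong to the lists, and their values, in CPM scaled by TMM, are given without a call.

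The targeted gene itself differed little. Chd8 (ENSMUSG00000053754, mm10 chromosome 14, 52198151 to 52257780) was at 76.13, 77.79, 74.43 and 75.95 CPM in WT males 1 and 2 and females 1 and 2, and at 81.64, 75.31, 65.53 and 70.62 CPM in Chd8het, with the mice listed likewise. The log2 difference, Chd8het minus WT, was -0.06 (SE 0.11, adjusted p = 0.963, edgeR quasi-likelihood, BH), with -0.03, -0.10 and -0.01 without WT female 2, Chd8het male 1 and Chd8het female 1, and the groups overlapped. It was -0.13 without doublets and -0.19 in nuclei thinned to 2000 UMIs. Chd8 was seen in 20.4% of astrocyte nuclei. Where the allele is altered is not given in the sources used here, so 3' counts need not report it and are no check of the genotype labels.

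Ddo had the smallest p. It encodes D-aspartate oxidase, which degrades D-aspartate, an agonist of NMDA receptors. It was at 67.53, 67.56, 81.69 and 58.74 CPM in WT and at 38.54, 36.68, 49.03 and 34.33 CPM in Chd8het. The lowest WT library lay above the highest Chd8het library. The log2 difference was -0.79 (SE 0.13, adjusted p = 0.259, edgeR quasi-likelihood, BH, lower in 4 of 4 pairs of the same sex and number), and -0.92 without leptomeningeal nuclei and doublets. Leptomeningeal nuclei themselves held Ddo at 107.4 CPM, against 52.7 CPM in the rest.

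Chrdl1 (ENSMUSG00000031283, mm10 chromosome X, 143285674 to 143394262) followed the same pattern. The WT libraries held 91.47, 95.54, 100.45 and 127.98 CPM and the Chd8het libraries 57.30, 53.85, 73.79 and 87.30 CPM. Every WT library was above every Chd8het library, with WT female 2 and Chd8het female 2 the highest of their groups. The log2 difference was -0.62 (SE 0.12, adjusted p = 0.266, edgeR quasi-likelihood, BH), -0.55 among single-indexed and -0.68 among dual-indexed libraries, and -0.55 without leptomeningeal nuclei and doublets.

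The share of nuclei with a Chrdl1 UMI at 2000 UMIs per nucleus rests on the same counts and was looked at because the level differed, so it is a description. It was 14.59%, 14.13%, 15.70% and 20.95% in WT and 10.17%, 9.618%, 12.85% and 13.31% in Chd8het. The highest Chd8het value lay below the lowest WT value, and the means were 16.34% ± 3.14 and 11.49% ± 1.86 (SD, n = 4 each).

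Being lower in 4 of 4 pairs was common, in 943 of 13174 genes (7.16%), and 940 (7.14%) were higher in 4 of 4. Beside Ddo and Chrdl1, the genes of smallest p among those lower in 4 of 4, at 20 CPM or more, were Eogt, an enzyme that adds sugars to EGF-like repeats (log2 -0.55), Plcl1, a phospholipase C-like protein (-0.46), Hpgds, the hematopoietic prostaglandin D synthase (-0.68), and the RNA-binding protein gene Rbms3 (-0.52). For Plcl1 and Hpgds the groups did not overlap. Hpgds was at 39.85 CPM in WT astrocytes and at 584 CPM in WT microglia, and 10 microglial markers, none at 0, summed to 0.0221% to 0.0274% of astrocyte UMIs in WT and 0.0191% to 0.0248% in Chd8het. The rule limited Inpp5d in members, so their microglial RNA was partly set by selection. Its part in the difference of Hpgds was not tested. The noncoding RNAs Gm45708 (-0.89) and Gm49708 (-0.88) were lower in all 4 pairs with overlapping groups, and both were also lower in dual-indexed libraries (log2 -0.78 and -1.15). The adjusted p-values of these 6 genes ran from 0.266 to 0.457 by edgeR's quasi-likelihood test with BH. The X-linked noncoding RNA 5330434G04Rik was lower in 4 of 4 pairs, at 62.1 ± 8.81 CPM in WT and 48.11 ± 6.22 CPM in Chd8het (SD, n = 4 each), with a log2 difference of -0.36 (adjusted p = 0.776), or -0.23 without Chd8het female 2, -0.22 without doublets and -0.62 in nuclei thinned to 2000 UMIs.

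The genes of smallest p with higher values in Chd8het were ones that astrocytes held less of than the other nuclei. Ntng1, netrin-G1, a membrane-anchored guidance protein, was at 28.85, 51.86, 42.36 and 53.29 CPM in WT and at 65.92, 85.07, 75.73 and 77 CPM in Chd8het. The groups did not overlap, with WT male 1 the lowest. The log2 difference was 0.80 (SE 0.14, adjusted p = 0.259, edgeR quasi-likelihood, BH) and 0.77 without leptomeningeal nuclei and doublets. In glutamatergic nuclei the level was 177.2 CPM.

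Zmat4, a zinc finger protein gene, was at 71.21, 72.34, 72.61 and 85.18 CPM in WT and at 103.95, 112.77, 116.50 and 113.78 CPM in Chd8het, with no overlap. Its log2 difference was 0.57 (SE 0.11, adjusted p = 0.266, edgeR quasi-likelihood, BH), 0.47 without leptomeningeal nuclei and doublets, and its glutamatergic level was 329.4 CPM. Cadps2, which acts in the release of dense-core vesicles, had means of 75.08 ± 8.68 and 120.6 ± 20.6 CPM (SD, n = 4 each), with Chd8het male 1 at 151.11 CPM. Its log2 difference of 0.67 became 0.41 without leptomeningeal nuclei and doublets. Prr16 (0.56, or 0.40 without those nuclei), Egfem1 (0.49), Hs3st5, a heparan sulfate sulfotransferase (0.94, or 0.61 without them and 0.59 with 8 or more marker UMIs), the contactin-associated Cntnap5b (0.70) and the ubiquitin ligase gene Hecw2 (0.61, or 0.45) completed the 8 genes of smallest p with higher values, and each was lower in astrocytes than in the other nuclei. Neuronal markers are given beside them as a description. The rule limited Slc17a7, Gad1 and Gad2 in members, so their neuronal RNA was partly set by selection. The 19 excitatory neuron markers, with 0 that passed, summed to 1.089% to 1.547% of astrocyte UMIs in WT and 1.299% to 1.589% in Chd8het, so the groups overlapped. Of the 19, 17 were higher, with a median log2 difference of 0.192 (0.080 to 0.314 with 1 library left out). At an unadjusted p under 0.05, 5 were higher and 0 lower, against a background of 3.25% higher and 2.73% lower. Of 11 inhibitory neuron markers tested 6 were higher and 5 lower, with a median of 0.018 (-0.156 to 0.226 with 1 library left out). At the same unadjusted p, 2 of them were higher and 0 lower. None of the 19 was at 0, and the part of neuronal RNA in the differences of these 8 genes was not tested.

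**Figure D3:**
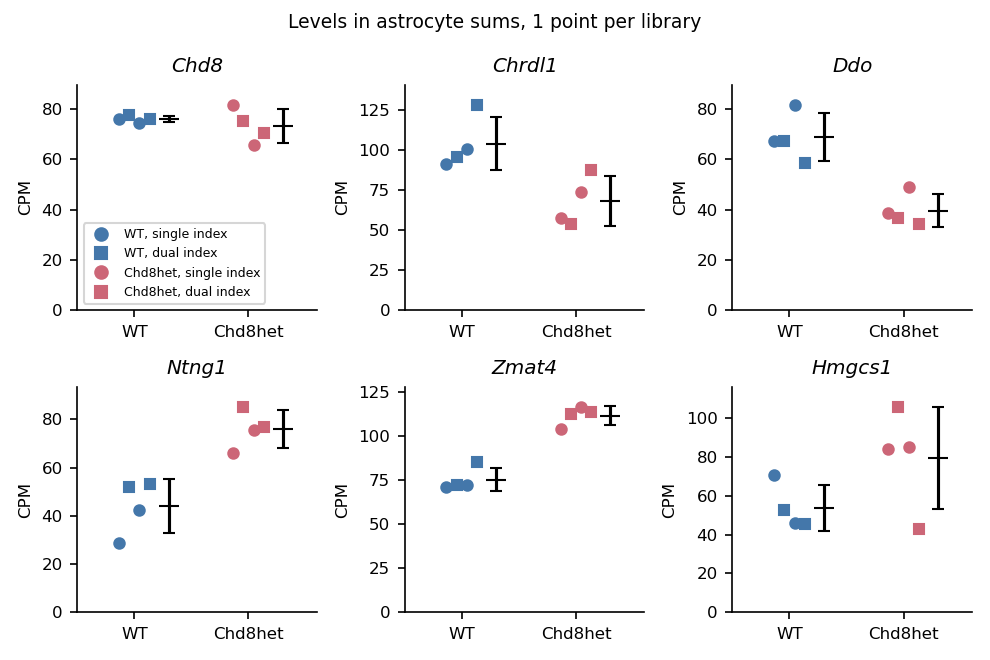
Level (CPM scaled by TMM) of Chd8, Chrdl1, Ddo, Ntng1, Zmat4 and Hmgcs1 in the astrocyte sum of each library, as circles for single- and squares for dual-indexed libraries, with black bars for the mean ± SD of 4 libraries. The Chd8het libraries lie below the WT libraries for Chrdl1 and Ddo and above them for Ntng1 and Zmat4, and the groups overlap for Chd8 and Hmgcs1.

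The genes of the rule are given as a description, with no test. The log2 differences, Chd8het minus WT, were -0.06 for Slc1a3, 0.16 for Aqp4, 0.003 for Gja1 and -0.12 for Slc39a12. Gli3 was lower in 4 of 4 pairs, at 620.06, 550.02, 642.03 and 572.75 CPM in WT and 505.56, 522.11, 525.24 and 549.30 CPM in Chd8het. Its highest Chd8het library lay just below its lowest WT library. Gpc5, outside the rule, was at -0.18 and lower in 4 of 4 pairs (adjusted p = 0.808, edgeR quasi-likelihood, BH).

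Of the 36 markers outside the rule, 27 had a lower and 9 a higher value in Chd8het, with a median log2 difference of -0.076 (-0.104 to -0.041 with 1 library left out), against 0.000 over all 13174 genes. At an unadjusted p under 0.05 there were 4 lower and 0 higher, against a background of 2.73% lower and 3.25% higher. Prex2, a Rac exchange factor, was at 2220, 2159, 2256 and 2115 CPM in WT and at 2004, 1694, 1684 and 1802 CPM in Chd8het. All Chd8het libraries were below all WT libraries, with a log2 difference of -0.29 (SE 0.09, adjusted p = 0.635, edgeR quasi-likelihood, BH). Luzp2, a leucine zipper protein, was at -0.39 (SE 0.10, adjusted p = 0.458), with overlapping groups and a higher level in dual-indexed libraries by 0.43. The list summed to 5.238% ± 0.159 of astrocyte UMIs in WT and 4.772% ± 0.236 in Chd8het (SD, n = 4 each), beside the neuronal UMIs given above.

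Among 16 genes of glutamate, potassium and water handling, with Slc1a3, Aqp4 and Gja1 of the rule left out, 5 were higher and 11 lower, with a median of -0.049, and 0 had an unadjusted p under 0.05. Dtna, dystrobrevin alpha of the endfoot complex, was at -0.20, and Mlc1, a membrane protein of the same endfeet, at 0.21, or 0.11 without Chd8het male 2.

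Of 30 synapse-regulating factors, 19 were lower and 11 higher in Chd8het, with a median of -0.088. At an unadjusted p under 0.05, 6 were lower, against a background of 2.73% of all genes, and 1 was higher. Beside Chrdl1 the lower ones were Thbs4, Ptn, Gpc4, Gpc5 and Lsamp. The lists share members: Chrdl1, Gpc5 and Lsamp are also on the grey matter list, and Thbs4 and Gpc4 on the white matter and pial list. The median was close to those of the markers outside the rule (-0.076) and of the grey matter genes (-0.091). Thbs4 was at 30.08, 19.79, 15.13 and 15.94 CPM in WT and at 8.62, 11.32, 10.19 and 13.73 CPM in Chd8het. The groups did not overlap, WT male 1 stood highest, and the log2 difference was -0.86 (SE 0.25, adjusted p = 0.606, edgeR quasi-likelihood, BH), or -0.55 without WT male 1 and -0.50 with members of 8 or more marker UMIs. Thbs4 was seen in 2.54% of nuclei. The growth factor pleiotrophin, Ptn, was at -0.34, the glypican Gpc4, which recruits AMPA receptors to synapses, at -0.35 (-0.15 in nuclei thinned to 2000 UMIs), and the adhesion molecule Lsamp at -0.22, or -0.13 without Chd8het male 2. The neuregulin Nrg3 was the gene with a higher value, at 0.31.

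The list summed to 5.521% to 5.889% of astrocyte UMIs in WT and 4.887% to 5.460% in Chd8het, without overlap. Lsamp and Gpc5 alone were at 22150 and 10750 CPM in WT, so they carry much of this sum.

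Cholesterol and lipid supply genes lay the other way. Of 32 tested, 25 were higher and 7 lower in Chd8het, with a median log2 difference of 0.233, and 7 were higher and 0 lower at an unadjusted p under 0.05, against a background of 3.25% higher. Hmgcs1, a synthase of the mevalonate pathway, was at 70.60, 52.55, 45.99 and 45.32 CPM in WT and at 84.18, 105.36, 84.95 and 42.67 CPM in Chd8het. It was lower in Chd8het female 2 than in any other library, and higher in 3 of 4 pairs. The log2 difference was 0.56 (SE 0.17, adjusted p = 0.635, edgeR quasi-likelihood, BH), or 0.34 without Chd8het male 2.

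Of the others, Fdps was at 0.49, Mvk at 0.57, Hsd17b7 at 0.45 and the fatty acid elongase gene Elovl5 at 0.30. The same list differed by index type: 8 of its genes passed as lower in dual-indexed libraries, against a background of 3.75% of all genes, with a median of -0.356. The sum of the list was 0.326% ± 0.057 of astrocyte UMIs in WT and 0.356% ± 0.053 in Chd8het (SD, n = 4 each). Other measures lay the same way in genotype and index type, with 0 genes that passed for genotype. Ribosomal protein genes had medians of 0.224 for Chd8het minus WT and -0.486 for dual minus single index, and nuclear oxidative phosphorylation genes of 0.105 and -0.285. The median mitochondrial percent of an astrocyte nucleus was 0.171% ± 0.067 in WT and 0.244% ± 0.108 in Chd8het (SD, n = 4 each; exact permutation test, two-sided, p = 0.314, higher in 3 of 4 pairs), from 0.148% to 0.391% in single- and 0.102% to 0.241% in dual-indexed libraries. Their part in the values of the cholesterol list was not tested.

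Of 29 grey matter astrocyte genes, 20 were lower and 9 higher (median -0.091), and of 29 white matter and pial genes without Aqp4 17 were higher and 12 lower (median 0.080). Glial fate transcription factors and Notch genes without Gli3 were lower in 26 of 36 cases (median -0.090), with Meis2 at -0.30. Otx1 was at -0.61, with -0.39 without Chd8het female 2, -0.94 without Chd8het male 2 and -0.34 in nuclei thinned to 2000 UMIs. Maml3, a Notch coactivator, was at -0.37 (adjusted p = 0.787), or -0.17 without WT male 2 and -0.20 either without doublets or with 8 or more marker UMIs, and it was higher in dual-indexed libraries by 1.13 (adjusted p = 0.00140, both edgeR quasi-likelihood, BH). Transmitter and calcium signalling genes were lower in 19 of 29 cases (median -0.038), with the calcium channel gene Ryr3 at 0.55 and the purine receptor gene P2ry12 at -0.47. P2ry12 lies inside Med12l and is known from microglia, where its WT level was 895.1 CPM against 76.21 CPM in astrocytes, and without stated strand counting its reads cannot be told apart from those of Med12l.

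Of 40 reactive astrocyte genes 13 had counts high enough to test, 6 higher and 7 lower (median -0.021), and Steap4, Ugt1a1 and C3 had 0 UMIs in all astrocytes. Gfap differed by -0.12 between genotypes (adjusted p = 0.959) and was higher in dual-indexed libraries by 0.71 (adjusted p = 0.0204, both edgeR quasi-likelihood, BH). Chromatin remodellers of the CHD family and their partners had 10 higher and 7 lower (median 0.006), and autism-associated regulators 21 higher and 22 lower (median -0.012). Ribosomal protein genes had 68 of 76 higher in Chd8het, with a median of 0.224, and 17 of them passed as lower in dual-indexed libraries, where 3.75% of all genes did. Markers of oligodendrocytes had 7 of 10 higher (median 0.284, and 0.159 to 0.460 with 1 library left out), at 0.0386% of astrocyte UMIs in WT and 0.0483% in Chd8het. Microglial markers had 2 of 10 higher (median -0.111, and -0.275 to -0.036 with 1 library left out). At an unadjusted p under 0.05, 3 oligodendrocyte markers were higher and 0 lower, and 0 microglial markers were higher and 1 lower. The background was 3.25% higher and 2.73% lower. The rule limited Mog, Mag, St18 and Inpp5d in members, so oligodendrocyte and microglial marker levels were partly set by selection. In each list of this paragraph 0 genes passed the adjusted threshold for genotype in the fit with the filter on low counts.

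**Figure D4:**
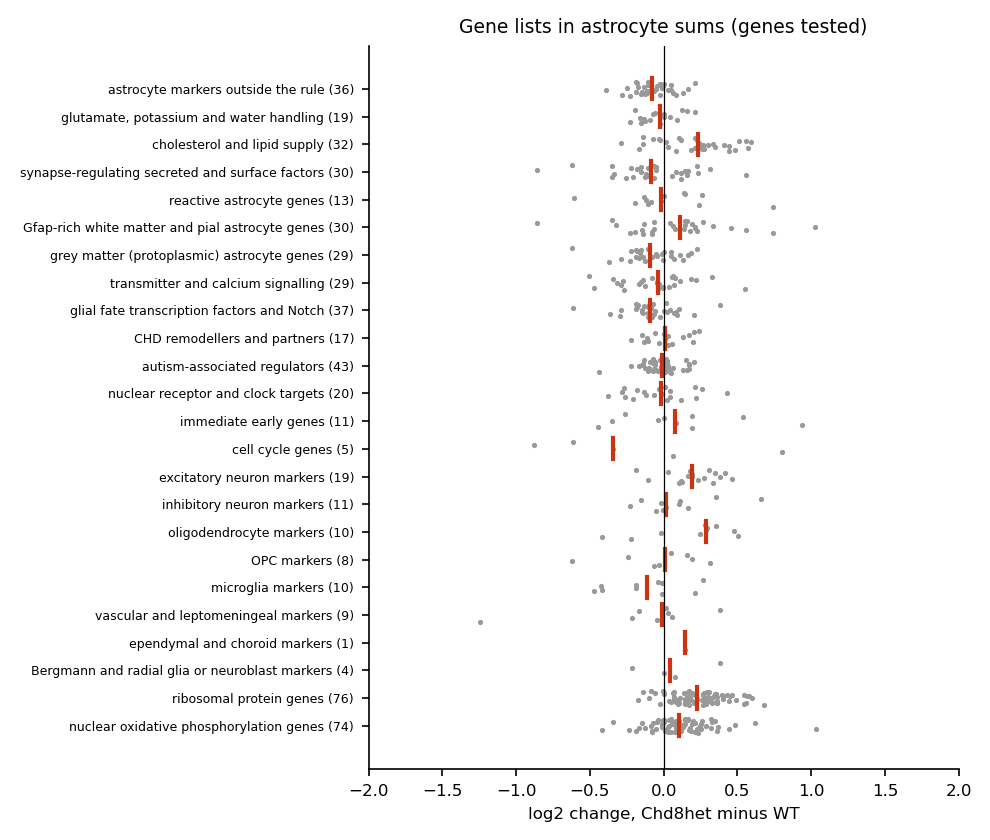
Log2 difference, Chd8het minus WT, of the tested genes of each list in astrocytes, with a grey point for each gene, a red bar at the list median and the number of tested genes in parentheses. The cholesterol list is centred at 0.233, ribosomal protein genes at 0.224, excitatory neuron markers at 0.192 and synapse-regulating factors at -0.088.

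Astrocytes made up 6.102%, 5.821%, 5.334% and 6.564% of kept nuclei in WT and 5.776%, 7.393%, 6.109% and 6.668% in Chd8het. The groups overlapped, with means of 5.955% ± 0.515 and 6.486% ± 0.708 (SD, n = 4 each; exact permutation test, two-sided, p = 0.286, where the smallest p that 4 against 4 allows is 0.0286). Without leptomeningeal nuclei and doublets the difference was 0.484 percentage points (p = 0.400, same exact test). Median UMIs per astrocyte nucleus were 2809 ± 198 in WT and 2915 ± 240.4 in Chd8het (SD, n = 4 each; exact permutation test, p = 0.543). A nucleus share depends on how tissue gave up its nuclei, and it cannot tell fewer astrocytes from more of other cells.

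The share of astrocyte nuclei with 2 or more Gfap UMIs was 0.941%, 1.662%, 0.897% and 0.952% in WT and 1.483%, 1.832%, 1.004% and 2.740% in Chd8het. It was higher in 4 of 4 pairs, but the groups overlapped (means 1.113% ± 0.367 and 1.765% ± 0.733, SD, n = 4 each; exact permutation test, p = 0.171). Without leptomeningeal nuclei and doublets the difference was 0.785 percentage points (p = 0.0571, same exact test). The shares of all members rest on 4 to 14 nuclei per library. Thinned to 3000 UMIs, the difference took the other sign, at -0.481 percentage points.

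**Figure D5:**
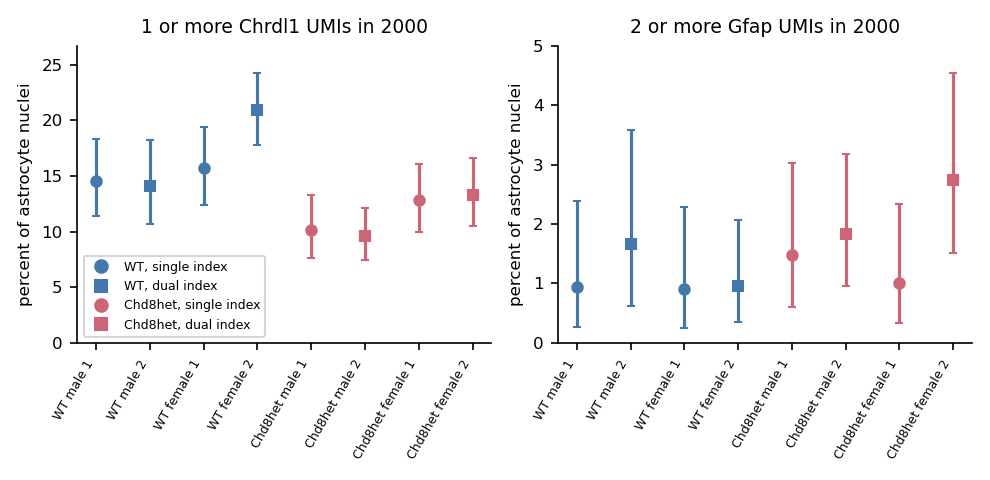
Percent of astrocyte nuclei with a Chrdl1 UMI (left) and with 2 or more Gfap UMIs (right) at 2000 UMIs per nucleus in each library, with exact binomial 95% intervals for counting error only. For Chrdl1 the Chd8het libraries, at 9.618% to 13.31%, lie below the WT libraries, at 14.13% to 20.95%, and for Gfap the groups overlap.

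Many genes in astrocytes differed by index type, which cannot be told apart from replicate number. By the same fit, 1131 of 13174 genes (8.59%) differed between single- and dual-indexed libraries, 637 (4.84%) higher and 494 (3.75%) lower in dual. The count fell to 452, 472, 379, 558 and 544 without WT male 1, WT male 2, Chd8het male 1, Chd8het male 2 or Chd8het female 1. Pde10a, a phosphodiesterase of cyclic nucleotides, was at 218.56 and 374.57 CPM in the single-indexed WT male and female and at 1589.33 and 1636.42 CPM in the dual-indexed ones. In Chd8het the values were 258.10 and 293.69 against 916.24 and 1029.93 CPM, with a log2 difference of 2.15 over both genotypes. Dscaml1, an adhesion molecule gene, was higher in dual by 1.41, and Arl6ip1, a shaping protein of the endoplasmic reticulum, was at -1.07. Luzp2, Maml3, Gm45708, Gm49708, Rbms3 and Ryr3, named for genotype, were among the genes that differed by index type. Astrocyte nuclei of dual-indexed libraries were also deeper, with median UMIs averaging 3012 against 2712 in single-indexed ones (exact permutation test, p = 0.0571). In sums of nuclei thinned to 2000 UMIs, which hold fewer counts, 604 of 10841 genes passed by index type. The part of depth in these calls was not otherwise tested.

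Sex differed in 8 of 13174 genes (0.0607%). Xist and Tsix were higher in females and the Y-linked Uty, Eif2s3y, Ddx3y and Kdm5d in males. The X-linked histone demethylase gene Kdm6a (log2, male minus female, -0.78, adjusted p = 0.0158) and Jpx (-0.81, adjusted p = 0.0331), a noncoding RNA of the X inactivation centre, were higher in females, by edgeR's quasi-likelihood test with BH. Tsix overlaps Xist on the other strand, and their reads cannot be told apart without stated strand counting. All 8 mice matched their sex labels. The genotype difference itself differed between sexes in 0 of 13174 genes (0%), and in 8 without WT female 2. That leaves 1 WT female, which the fit assumes to vary like the other groups, so these 8 are given as a count only.

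Whether the genotype difference in astrocytes differed from that in other glia was tested in a joint fit. Against OPC 0 of 12324 genes (0%) passed and against oligodendrocytes 0 of 14020 (0%). Against microglia 1 of 13108 (0.00763%) passed. This was Adarb2, an RNA-editing family protein of interneurons, with an astrocyte change of 0.66 and a microglial change of -1.49, from 280.6 to 85.83 CPM (difference 2.13, SE 0.34, adjusted p = 0.00186, edgeR quasi-likelihood, BH). Astrocyte levels of Adarb2 were 47.89, 94.85, 139.78 and 59.16 CPM in WT and 210.44, 88.58, 95.63 and 142.72 CPM in Chd8het, with overlap. Without the block for library 0 genes passed. Without WT female 1, 0 genes passed, without WT female 2, 4 (Adarb2, Nxph1, Cdh13 and Tox), and without Chd8het male 1, 2 (Adarb2 and Tox).

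No gene of smallest p for genotype in astrocytes passed this test of a difference between classes, and the estimates went both ways. The log2 change of Ntng1 was 0.80 in astrocytes, 0.47 in OPC, 0.58 in oligodendrocytes and 0.87 in microglia. That of Zmat4 was 0.57, 0.45, 0.36 and 0.53 in the same order. Cntnap5b was at 0.70, 0.26, 0.73 and 0.94. Other estimates were larger in astrocytes than in some of these classes, with 0 that passed. Luzp2 was at -0.39 in astrocytes, -0.01 in OPC, 0.005 in oligodendrocytes and 0.43 in microglia, a difference from OPC of -0.38 (adjusted p = 0.992, edgeR quasi-likelihood, BH). Hecw2 was at 0.61 in astrocytes, -0.01 in OPC, -0.09 in oligodendrocytes and 0.60 in microglia. Cadps2 was at 0.67, 0.07, 0.18 and 0.31 in the same order, Hs3st5 at 0.94, 0.44, 0.001 and 0.26, and Rbms3 at -0.52, -0.03, 0.22 and -0.24. Chrdl1 and Ddo were too low in these classes to be fitted there alone. In the joint fit the astrocyte minus other difference of Chrdl1 was 0.40 (SE 0.77) for OPC, -0.76 (SE 0.75) for oligodendrocytes and 0.60 (SE 0.90) for microglia. For Ddo it was 0.11 (SE 0.81), -0.54 (SE 0.46) and -0.73 (SE 0.88). With errors of this size a difference in either direction was not detectable at this depth. All these classes come from the same 8 libraries.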

How the data were processed

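Nuclei of 8 mice were sequenced on a NovaSeq instrument, per the labels' protocols. The submitters' processing notes name STAR 2.7.9a, STARsolo, Cell Ranger and the mm10 build, with no role or order; the sources used here do not give the barcode filter, intron use, strandedness or annotation version. The deposited values are raw UMI counts per gene and barcode, which the authors had not normalized. Gene positions were taken from an mm10 annotation (GENCODE M21), which matched 32235 of 32285 gene identifiers.

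The members and gene lists were chosen with earlier results of these data known. Counts of member nuclei were summed per library and tested with edgeR 4.0.16 (quasi-likelihood, TMM, filterByExpr with a minimum count of 10, terms sex, index type and genotype), two-sided, with BH adjustment over all genes tested and a threshold of 0.05; fold changes are log2 values on this scale. Doublets were predicted with Scrublet (scanpy 1.11.5) per library at 0.8% per 1000 nuclei and kept unless stated. Shares of nuclei were compared after thinning to 2000 UMIs (alternative 3000), with exact permutation tests over libraries (scipy 1.17.1). Intervals and limits cover counting error only. Replicates of a group differed by more than sampling noise.

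Named genes were Chd8, the rule's markers, 5330434G04Rik, Maml3, the 8 of smallest p in each direction with 20 CPM or more and 4 of 4 pairs alike, and 2 per function list; for index type and sex 4 per direction, for class comparisons 3, and for the splits 10 and the subtype lists. A few of these are not reported here.

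Per the labels, WT and Chd8het mice were matched by litter and sex, but no label says which libraries pair. Libraries of the same sex and number deviated together from their group means (r = 0.302, 0.165, 0.373 and 0.365 across genes), and were taken as pairs. Libraries of the other sex with the same number and index type had r of 0.183, 0.105, 0.037 and 0.228, and libraries of the other number -0.327 to -0.001. The means were those of each genotype, so the deviations kept differences by sex and index type. Libraries of the same sex and number share both, so these correlations cannot tell pairing apart from sex and index type. Alternatives were DESeq2 1.42.0, no count filter, stricter nucleus filters, thinned sums, no index term, the pair as a block, and each library left out. Scripts were tested on simulated data.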

Additional observations from a re-analysis of the deposited data

Results flagged for a closer look

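In 9 of 144 groups of 4 libraries examined, 1 library lay farther from the other 3 than Dixon's 95% critical value allows. Chance alone flags about 1 in 20. The median UMIs per astrocyte nucleus was 3103 in WT female 2, with the other WT libraries between 2674 and 2738. The share of nuclei with 2 or more Gfap UMIs was 1.662% in WT male 2, with the others at 0.8969% to 0.9524%. Slc1a3 was at 1975 CPM in Chd8het male 2 (others 2171 to 2194), which is a description only, since the rule chose members on this gene. Zmat4 was at 85.18 CPM in WT female 2 (others 71.21 to 72.61), and Cadps2 at 151.1 CPM in Chd8het male 1 (others 105.9 to 113.2).

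Dtna was at 2001 CPM in WT male 1 (others 1940 to 1949) and at 1999 CPM in Chd8het female 2 (others 1595 to 1643). Sphk1, a sphingosine kinase gene, was at 9.32 CPM in Chd8het female 2 (others 2.43 to 3.55), a level of few UMIs. Pdk4, a kinase that acts on pyruvate dehydrogenase, was at 18.93 CPM in Chd8het female 1 (others 11.77 to 12.49). The genotype difference of Adarb2 differed between astrocytes and microglia, by 2.133 on the log2 scale.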

How the results depend on the processing

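Genotype calls stayed at 0 with DESeq2, and the replicate block, which pairs libraries of 1 sex and number, changed no call, with 0 genes by edgeR and 0 by DESeq2. Without the filter on low counts 80 genes passed for genotype and 105 for sex, and over libraries left out the genotype count ran from 0 to 9. Index type gave 505 genes with DESeq2, 604 in thinned sums and 379 to 1187 with 1 library left out. The sex by genotype count ran from 0 to 8 and the microglia comparison from 0 to 4, with 0 without the library block. Nuclei split by Gfap at 2 or more UMIs gave 125 calls without scaling and 131 without scaling, leptomeningeal nuclei and doublets. With DESeq2 size factors there were 123. At 1 or more UMIs there were 91 with TMM scaling, 92 without scaling, and 79 without scaling, leptomeningeal nuclei and doublets. The TMM-scaled fit at 2 or more UMIs gave 790 to 1128 with 1 library left out (917, 790, 824 and 829 without WT female 1, WT female 2, Chd8het male 1 and Chd8het female 1). No count with 1 library left out is given for the version behind the named values. The Chrdl1 split fell to 3 calls without leptomeningeal nuclei and doublets, with and without scaling. The share of Gfap nuclei reversed to -0.4811 at 3000 UMIs. Of 42 named genes 40 kept their direction in every one of up to 21 settings; Gja1 was -0.019 under stricter nucleus filters and -0.011 in thinned sums, with -0.056 to 0.073 with 1 library left out, and Aqp4 ran from -0.017 to 0.311. Of 37 named genes outside the rule 12 moved by over 1.5 times with 1 library left out and 9 with another choice of nuclei; these are given with the genes. In the Gfap split Ptgds turned to 0.167 and 0.270, and in the Chrdl1 split Cped1 to 0.494 and 0.480, each without leptomeningeal nuclei and doublets. The high level of Ptgds in leptomeningeal nuclei is given above, and the cause of these turns was not tested. With 1 library left out, the list median stayed at 0.126 to 0.335 for cholesterol and lipid supply, at -0.106 to -0.058 for synapse-regulating factors and at 0.072 to 0.561 for ribosomal protein genes, while that of white matter and pial genes, Aqp4 included, ran from -0.004 to 0.142 and that of reactive genes from -0.096 to 0.24. The difference in the leptomeningeal percent ran from -0.976 to 0.359 points, at 0.3586, 0.1159 and 0.1779 without WT female 1, Chd8het male 2 and Chd8het female 1. Depth limits genes seen in few nuclei, such as Thbs4, and the shares of Gfap nuclei.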

Other observations

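In the gene groups of this paragraph 0 genes passed the adjusted threshold for genotype in the fit with the filter on low counts. The rule limited Gad1, Gad2, Pdgfra and Flt1 in members, so inhibitory neuron, OPC and vascular marker levels were partly set by selection. Nuclear receptor and clock targets were higher in Chd8het for 9 of 20 tested genes (median log2 difference -0.019), immediate early genes for 7 of 11 (0.074), inhibitory neuron markers for 6 of 11 (0.018) and OPC markers for 4 of 8 (0.012). Nuclear genes of oxidative phosphorylation were higher for 56 of 74 (median 0.105), with Cox7b2, a subunit of cytochrome c oxidase, at 7.635 CPM in WT and 15.71 CPM in Chd8het. Without the filter Cox7b2 passed (log2 1.04, adjusted p = 0.0183, edgeR quasi-likelihood, BH). Vascular and leptomeningeal markers had a median of -0.010, Bergmann glia genes of 0.042 and 5 cell cycle genes of -0.341. With 1 library left out, the median of oxidative phosphorylation genes ran from 0.011 to 0.3, that of Bergmann glia genes from -0.061 to 0.112 and that of cell cycle genes from -1.534 to 0.222. The medians of the other 5 groups in this paragraph also took either sign. Vim was at 0.74 (0.45 without WT male 2) and Pdk4 at -0.38 (-0.22 without Chd8het male 1, -0.24 with 8 or more marker UMIs and -0.17 in nuclei thinned to 2000 UMIs). Sphk1 was at -0.61, with -0.12, -0.33, -0.29 and -1.33 without WT male 1, Chd8het male 2, Chd8het female 1 and Chd8het female 2. The phagocytosis receptor gene Mertk was at -0.21, with -0.12, -0.33, -0.04 and -0.36 without WT male 1, WT female 1, Chd8het male 2 and Chd8het female 2.

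More genes differed by index type. The noncoding RNAs AY036118 (1.05), which overlaps Gm42418, and Gm47027 (1.73), which overlaps Grip1, were higher in dual-indexed libraries, and 4632427E13Rik (-0.85) was lower, as log2 differences of dual minus single. The joint fits with other glia gave no further calls. The genes of smallest p against OPC were Hecw2 (0.63), Tmem132d (0.64) and Arfgef3 (0.77) with a more positive change in astrocytes, and Cep112 (-0.82), Etv5 (-0.81) and Tmem47 (-1.92) with a more negative one. Against oligodendrocytes they were Rap1gap2 (0.66), Ccnt1 (0.62), Sh3rf3 (0.58), Lypd6 (-0.78), Tox3 (-0.96) and Gm13974 (-2.34), and against microglia, beside Adarb2, Gng4 (4.57), Gm10848 (1.53), Tox (-1.16), Cdh13 (-1.20) and Pcsk5 (-1.36).

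Nuclei with Gfap also held more Disp3 (241.9 against 65.44 CPM), Prune2 (177.4 against 33.84 CPM), Emid1 (76.04 against 12.97 CPM), Angpt1 (159 against 43.08 CPM) and Grin3a (313.4 against 96.75 CPM), at 2000 UMIs per nucleus without leptomeningeal nuclei and doublets. Grik1, a kainate receptor gene, was lower, at 29.95 against 81.25 CPM.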
